A study of Homo sapiens with 4 samples.

Results

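The genes of the eIF4F cap-binding complex and of the proteins that repress it were followed in RNA recovered with the fragile X protein FMRP. The set comprised 10 genes: EIF4E, EIF4E2, EIF4G1, EIF4G2, EIF4G3, EIF4A1, EIF4A2, EIF4B, EIF4EBP1 and EIF4EBP2. All probe sets annotated with 1 of these symbols and no other were taken, which gave 24 of the 41091 single-symbol probe sets on the array. They covered 8 of the 10 genes. EIF4A1 was named only on 3 probe sets that also carry other symbols, which were left out, as were 2 such probe sets of EIF4A2. EIF4G3 was not analysed here.

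The IP group consisted of 2 RNA samples recovered with anti-FLAG M2 antibody from lysates of a stable Flp-In T-REx HEK293 line expressing FMRP with a Flag and HA tag, and the lysate group of 2 samples of total RNA set aside before the immunoprecipitation (IP). HEK293 is a human embryonic kidney line, and the transgene was induced in all cells with doxycycline (1 µg/ml, 16 h). The IPs were washed at 300 mM KCl, and each sample was hybridized to 1 Affymetrix Human Genome U133 Plus 2.0 array. No mock IP and no uninduced cells are among the samples, the line is a single stable line, and the labels do not say whether replicates came from separate cultures, so p-values measure only the spread between these samples, which may be technical.

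The deposited values are log2 signals on a common scale. Pearson's r across genes, which are not independent replicates, was 0.992 between the IP arrays, 0.993 between the lysate arrays and 0.873 to 0.903 between an IP and a lysate array. With 2 arrays in a group, precision is limited by that number. Of the 6 HEK293 markers, KRT8, KRT18, VIM, INA and PAX2 lay above the filter level and NEFM below it. Of 6 markers of other cell types only HBB lay above it, at 5.87 in the IP and 5.56 in the lysate. The mRNA of FMRP itself, FMR1, stood at 9.28 and 9.03 on the IP arrays and 9.64 and 9.51 on the lysate arrays, on a probe set that can cross-hybridize (change -0.42, limma adjusted p = 0.0261). That call was lost when lysate replicate 1 (-0.35), lysate 2 (-0.49) or IP 2 (-0.29) was left out. The other FMR1 probe set, a dimmer _s_at one, gave 8.16 and 7.90 in the IP and 8.80 and 8.63 in the lysate. Its change was -0.69 (limma adjusted p = 0.00548, probe set fit). Whether the probes read the transgene was not analysed here.

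The 3′ and 5′ control probe sets of ACTB and GAPDH, which report how far labelled RNA extends from the 3′ end, also moved with the groups. For ACTB the 3′ signal exceeded the 5′ signal by 3.02 and 2.96 (log2) on the IP arrays and by 1.37 and 1.34 on the lysate arrays. For GAPDH the excess was 0.94 and 1.03 in the IP and 0.19 in each lysate. This difference in RNA or labelling quality and the effect of the IP cannot be told apart for any result below, since each group holds 1 kind of RNA. Hybridization control transcripts added to each sample lay 0.53 higher on the IP arrays. With arrays centred on them the median change of all genes moved to -0.45, against 0.08 as deposited, so every change is relative to the array's scale.

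Translation of most mRNAs begins when eIF4F binds the 5′ cap. The complex consists of EIF4E, which holds the cap, an EIF4G scaffold, which bridges to the ribosome through EIF3, and the helicase EIF4A, which unwinds the leader with help from EIF4B. The repressors EIF4EBP1 and EIF4EBP2 occupy the surface of EIF4E that EIF4G uses, and release it when MTOR phosphorylates them. FMRP is itself known as a repressor of translation, and its partner CYFIP1 binds EIF4E.

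The mRNAs of the cap-binding subunit EIF4E and of both repressors were lower in the FMRP IP than in the lysate, and the EIF4G1 scaffold mRNA was higher. Of the 24 probe sets, 19 from 7 genes had a mean signal (all 4 arrays) that reached 4.70, which is the median of such means on the array, and were tested, while 5 lay below it. In a limma fit over 27281 probe sets, 12 of the 19 were lower in the IP, 3 were higher and 4 did not pass an adjusted p of 0.05. Over all probe sets tested 59.5% were called, 28% lower and 31.5% higher. The 12 lower ones came from EIF4EBP2 (4), EIF4E (3), EIF4E2 (2), EIF4B (2) and EIF4EBP1 (1), so they are not 12 independent genes. For 2 of the 12, EIF4E2 213570_at and EIF4EBP2 208769_at, the IP mean lay under the filter level, so that they were tested through their lysate signal, which favours a lower call. Among the 17 that reached the level in both groups 10 were lower, 3 higher and 4 not called, where all such probe sets gave 27.2% lower and 31.7% higher. The median change of the 17 was -0.49 and that of all such probe sets 0.06. The arrays of the groups did not overlap for 17 of the 19 tested (14 with the IP below and 3 with the IP above), where 80.2% of all probe sets did not overlap (37.4% and 42.7%). With hybridization control centring 15 were lower and 1 higher. Calls moved to lower across the whole array under that centring. Of 13157 genes 3790 were lower and 4611 higher as deposited, against 6442 lower and 1634 higher with it. The share over all probe sets with this centring is not given here.

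**Figure D1:**
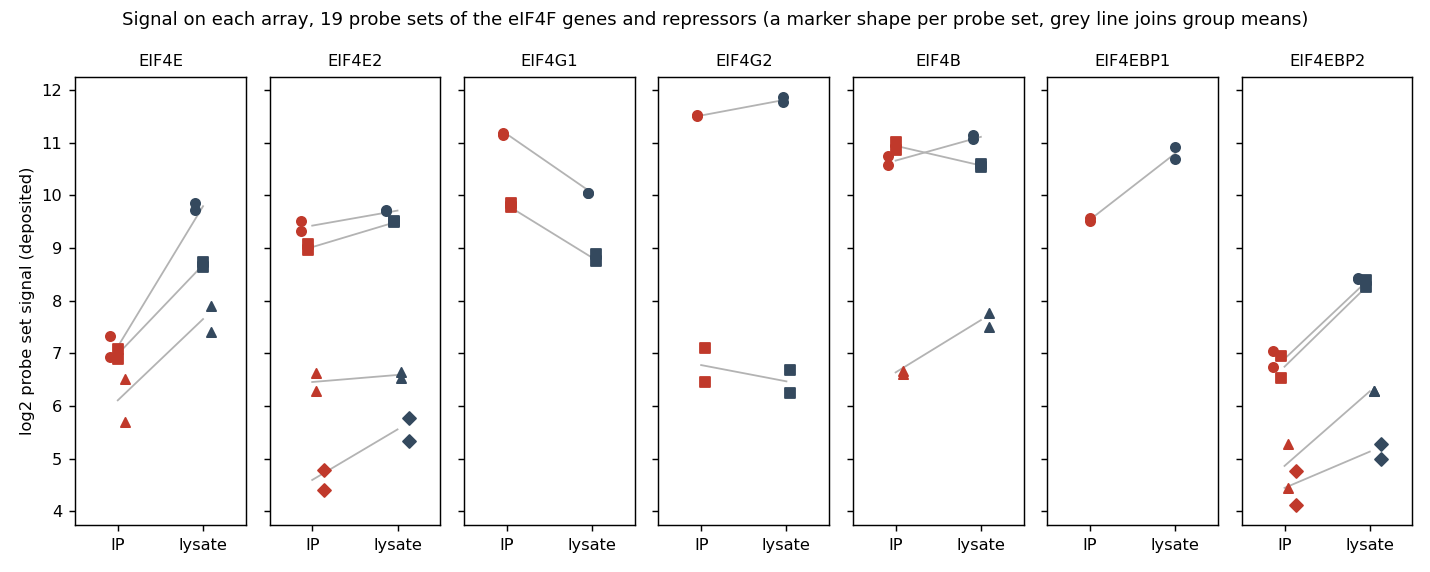
Log2 signal (y axis) on each IP array (red) and each lysate array (dark blue) for the 19 tested probe sets, with a panel for each gene, a marker shape for each probe set and a grey line joining the group means. EIF4E, EIF4EBP1 and EIF4EBP2 lie lower in the IP on every probe set shown, EIF4G1 lies higher on both, and the 2 brightest EIF4B probe sets cross. Heights of different probe sets are not comparable.

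EIF4E, the cap-binding subunit, had the largest change of the set. Its brightest probe set, 201435_s_at, gave 7.33 and 6.93 (log2 signal) on the IP arrays and 9.73 and 9.86 on the lysate arrays. The groups were separated by more than 2 log2 units, and the signal was 6.35-fold lower in the IP (change -2.67, 95% interval -3.05 to -2.28, limma adjusted p = 1.13e-04). Probe set 201437_s_at gave 7.08 and 6.88 in the IP and 8.73 and 8.63 in the lysate, 3.24-fold lower in the IP (adjusted p = 1.23e-04, limma). The third, 201436_at, gave 6.51 and 5.70 in the IP and 7.90 and 7.40 in the lysate, 2.91-fold lower in the IP (adjusted p = 0.003, limma). All 3 thus fell without overlap, by amounts from -2.67 to -1.54, and all 3 kept their call in every alternative tried for them. The other EIF4E probe sets lay below the filter level on average, 237718_at at 3.34 and 3.93 in the IP and 4.53 and 4.16 in the lysate, and 242674_at at 3.39 and 3.91 against 3.84 and 4.08. Neither was tested.

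Represented by its brightest probe set, EIF4E ranked 28th from the lowest change among 13157 genes, with 0.205% of genes below it. That probe set had the largest fall of those tested for EIF4E, and the others (-1.70 and -1.54) would rank less low. EIF4EBP2, at -1.53, ranked 697th. The genes whose 4 array values, each centred on its own mean, lay nearest to those of EIF4E were LSM2, an Sm-like protein gene, DAD1, encoding an oligosaccharyltransferase subunit, and TMEM14B, at Euclidean distances of 0.045, 0.059 and 0.096 log2 units over the 4 arrays. Their changes were -2.65, -2.65 and -2.62.

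EIF4E2, a cap-binding homologue known for its part in repression with GIGYF2, gave smaller changes. Probe set 209393_s_at stood at 8.96 and 9.07 in the IP and 9.50 on each lysate array, 1.40-fold lower in the IP (limma adjusted p = 0.0111). Probe set 213570_at stood at 4.78 and 4.41 in the IP and 5.33 and 5.78 in the lysate. It passed the filter through its lysate signal, so its lower call is not counted as support and no fold is given. The brightest one, 213571_s_at, changed by -0.29 (95% interval -0.59 to 0.02, limma adjusted p = 0.0947), and 226734_at by -0.13 (-0.50 to 0.23, limma adjusted p = 0.483). Both of these were called lower with hybridization control centring, at -0.82 and -0.67, and the first also with an intensity trend in the spread. In the fit with 1 probe set per gene, EIF4E2 did not pass (limma adjusted p = 0.0761). It was called lower there with a filter level of 6 (limma adjusted p = 0.0487). The mean of its tested probe sets was also called lower (-0.47, limma adjusted p = 0.00722), but that mean includes 213570_at. Without the filter on the mean signal 209393_s_at did not pass.

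EIF4G1, the main scaffold, moved the other way. Probe set 208625_s_at gave 11.18 and 11.15 in the IP and 10.05 and 10.04 in the lysate, and was 2.17-fold higher in the IP (change 1.12, 95% interval 0.84 to 1.40, limma adjusted p = 2.7e-04). Probe set 208624_s_at gave 9.78 and 9.85 in the IP and 8.75 and 8.89 in the lysate, with a change of 1.00 (limma adjusted p = 5.3e-04). The IP arrays lay above both lysate arrays on each, and the replicates of a group differed by 0.14 at most. With hybridization control centring the changes were 0.59 and 0.47, and the second no longer passed (adjusted p = 0.069, limma).

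EIF4G2 encodes a scaffold that lacks the EIF4E-binding site and serves initiation that does not use EIF4E. Its brightest probe set, 200004_at, gave 11.52 and 11.51 in the IP and 11.78 and 11.86 in the lysate. The IP arrays were lower on this probe set, by -0.30 (95% interval -0.58 to -0.02), which did not pass over all probe sets (limma adjusted p = 0.0629). In the fit with 1 probe set per gene the same values passed narrowly (limma adjusted p = 0.0487), and lost the call with lysate replicate 1 (-0.34), lysate 2 (-0.26), IP 1 (-0.31) or IP 2 (-0.30) left out, with the replicate number as a block (adjusted p = 0.052, limma) or with quantile normalization. Hybridization control centring made it -0.83, past the threshold. The probe set fit called 200004_at lower with an intensity trend (limma adjusted p = 0.00445) and with a filter level of 6 (limma adjusted p = 0.0339). The gene-level call was also lost with no filter, without _s_at and _x_at probe sets, and when the probe sets were averaged (0.0033). Probe set 1557964_at gave 6.46 and 7.10 in the IP and 6.68 and 6.25 in the lysate, with overlapping groups and a change of 0.31 (-0.26 to 0.88, limma adjusted p = 0.303). It was called higher without IP replicate 1, at 0.63. The third, 217607_x_at, lay below the filter level at 3.25 and 2.22 in the IP and 3.22 and 3.56 in the lysate.

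**Figure D2:**
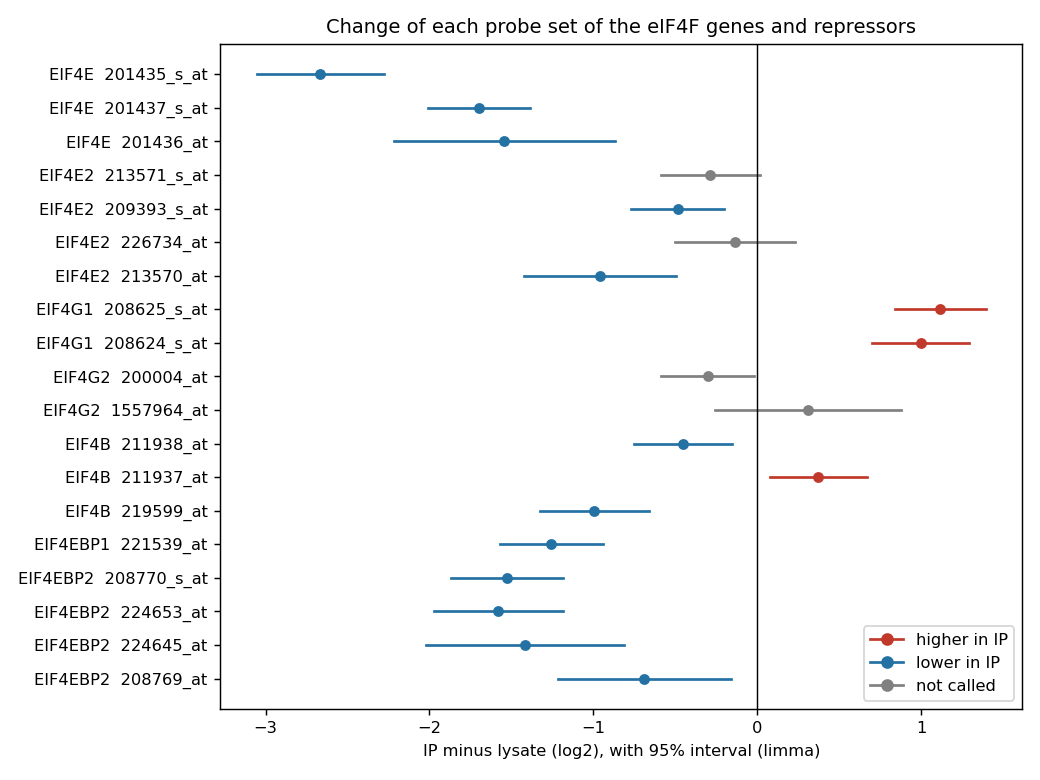
Change of each tested probe set, IP minus lysate in log2 units (x axis), with the 95% interval from limma as a bar; calls at an adjusted p of 0.05 are red (higher in the IP) or blue (lower), the rest grey. EIF4E holds the 2 values farthest to the left (-2.67 and -1.70), with its remaining one (-1.54) beside those of EIF4EBP2 (-1.58 and -1.53), and EIF4G1 farthest to the right (1.12 and 1.00).

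Setting EIF4E against the scaffolds on the same array removes any shift of a whole array. The difference of log2 signals between EIF4E (201435_s_at) and the mean of EIF4G1 and EIF4G2 was -4.02 and -4.40 on the IP arrays and -1.19 and -1.09 on the lysate arrays. Only the shift between groups has a meaning here, since probe sets differ in brightness. That shift was -3.07, so that the EIF4E signal relative to the scaffolds was 8.42-fold lower in the IP. The SD between replicates was 0.27 in the IP and 0.07 in the lysate. An exact two-sided permutation test over the 4 arrays gave p = 0.333, the smallest that 2 against 2 allows. In a limma fit over all genes with each array centred on the EIF4G mean, the change of EIF4E was -3.07 (95% interval -3.43 to -2.72, adjusted p = 1.42e-05). Relative to EIF4G1 alone it was -3.78, and relative to EIF4G2 alone -2.36. With each of the 3 EIF4E and 4 EIF4G probe sets paired in turn, all 12 differences were negative, from -3.78 to -1.24. The groups overlapped in none of them, where 80.2% of all single probe sets tested did not overlap. No such share was computed for differences between probe sets. The 12 pairs reuse the same probe sets and the same 4 arrays, so they are not independent of each other.

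**Figure D3:**
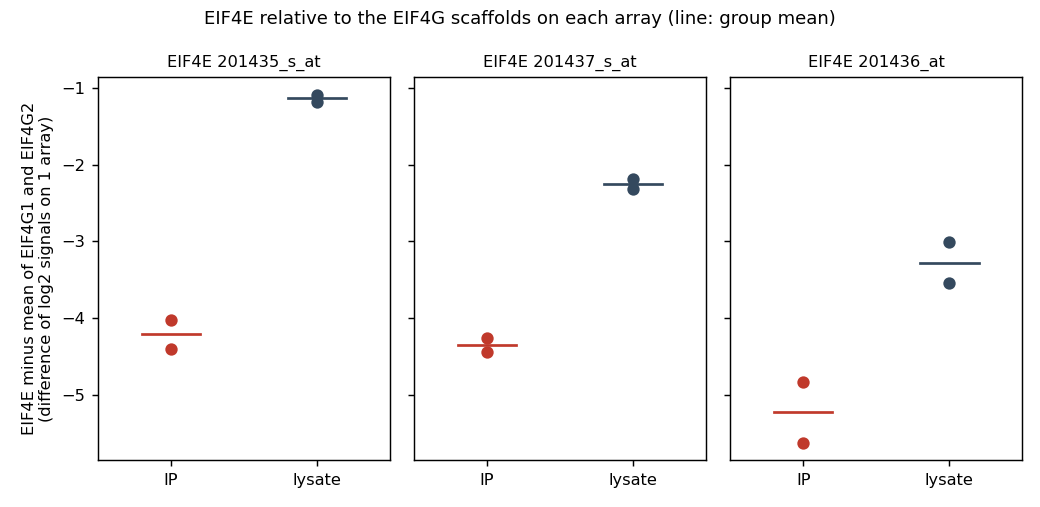
Difference of log2 signals on 1 array between EIF4E and the mean of EIF4G1 and EIF4G2 (y axis), on IP arrays (red) and lysate arrays (dark blue), with a panel for each EIF4E probe set; points are arrays and lines group means. For 201435_s_at the IP arrays stand at -4.02 and -4.40 and the lysate arrays at -1.19 and -1.09, and the groups are apart in each panel.

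The 250 bases before the outermost annotated start of EIF4E and EIF4G1 are shown (RefSeq, GRCh38.p14). They are given because these genes, which changed in opposite directions in the IP, both hold the same motif there. The windows of 9 of the 10 genes were searched, and that of EIF4EBP1 was left out of the search. Capitals mark CACGTG, the E-box that MYC and related factors bind. It reads the same on both strands, and no other motif was searched.
EIF4E, chr4:98929134-98929383, minus strand: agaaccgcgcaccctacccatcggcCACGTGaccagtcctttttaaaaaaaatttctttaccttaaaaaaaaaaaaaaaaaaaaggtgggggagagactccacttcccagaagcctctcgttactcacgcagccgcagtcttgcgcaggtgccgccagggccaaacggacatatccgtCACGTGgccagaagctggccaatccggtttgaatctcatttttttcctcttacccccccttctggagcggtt
EIF4G1, chr3:184314356-184314605, plus strand: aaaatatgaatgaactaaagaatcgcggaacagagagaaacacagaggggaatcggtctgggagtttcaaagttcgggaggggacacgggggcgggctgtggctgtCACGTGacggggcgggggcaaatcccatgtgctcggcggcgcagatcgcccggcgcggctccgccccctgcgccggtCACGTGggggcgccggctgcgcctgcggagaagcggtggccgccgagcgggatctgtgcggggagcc
EIF4G1 has 3 annotated starts in the table, and the windows before the other two hold no CACGTG. The first base of the E-box lay 225 and 72 bases before the start in EIF4E, and 144 and 67 bases before it in EIF4G1. Among the other genes searched, EIF4B had 1 E-box, 22 bases before the start, and EIF4E2, EIF4G2, EIF4G3, EIF4A1, EIF4A2 and EIF4EBP2 had none in this window. Of 35116 RefSeq windows of this length, 6.34% held at least 1 CACGTG and 0.535% at least 2. These windows cover all annotated starts and not only the outermost ones. Over all starts of the genes searched, 3 of 14 windows held it. The arrays measured RNA and not binding at these sites, and a relation of the motif to the changes in the IP was not tested.

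The repressor mRNAs were lower in the IP on each of the 4 probe sets, 1 of EIF4EBP1 and 3 of EIF4EBP2, that reached the filter level in both groups. EIF4EBP1, a direct target of MTOR, gave 9.51 and 9.57 in the IP and 10.69 and 10.91 in the lysate on 221539_at. It was 2.39-fold lower in the IP (change -1.26, 95% interval -1.57 to -0.94, limma adjusted p = 2.74e-04). EIF4EBP2, the form that predominates in brain, gave 7.05 and 6.74 in the IP and 8.43 and 8.42 in the lysate on 208770_s_at, 2.88-fold lower in the IP (limma adjusted p = 1.94e-04). On 224653_at it gave 6.95 and 6.54 in the IP and 8.39 and 8.26 in the lysate, 2.99-fold lower in the IP.

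The dimmer EIF4EBP2 probe sets showed the same direction with more spread. Probe set 224645_at gave 5.28 and 4.45 in the IP and 6.28 on each lysate array (change -1.42, limma adjusted p = 0.00262), and 208769_at gave 4.76 and 4.13 in the IP and 5.28 and 4.99 in the lysate. The second passed the filter through its lysate signal, so its lower call is not counted as support. The IP levels reach the low end of the arrays, where no floor is known, and no fold is given. The call of 208769_at was lost when lysate replicate 1 (-0.54), lysate 2 (-0.83) or IP 2 (-0.37) was left out, and also with no filter. IP replicate 2 was lower than IP replicate 1 on all 4 of these probe sets and on the 3 of EIF4E. The fifth EIF4EBP2 probe set, 1570454_at, lay below the filter level at 2.80 and 2.52 in the IP and 3.02 and 2.59 in the lysate.

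EIF4B, the cofactor of the helicase, gave different directions on different probe sets. Probe set 211938_at gave 10.58 and 10.74 in the IP and 11.07 and 11.15 in the lysate (change -0.45, limma adjusted p = 0.0184). Probe set 211937_at gave 10.86 and 11.01 in the IP and 10.60 and 10.53 in the lysate (change 0.37, limma adjusted p = 0.0366). Probe set 219599_at gave 6.67 and 6.61 in the IP and 7.50 and 7.77 in the lysate, 1.99-fold lower in the IP (limma adjusted p = 8.66e-04). No direction can therefore be given for the gene. The rise on 211937_at turned to -0.16 with hybridization control centring, and was lost when lysate replicate 1 (0.41), lysate 2 (0.34) or IP 2 (0.30) was left out. The fall on 211938_at was lost when lysate replicate 1 (-0.49), lysate 2 (-0.41) or IP 1 (-0.37) was left out. Neither passed without the filter. The helicase gene EIF4A2 had 1 single-symbol probe set, which lay near the bottom of the scale at 2.33 and 2.25 in the IP and 2.13 and 2.40 in the lysate and was not tested.

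With 1 probe set per gene, 5 of the 7 genes were lower in the IP (EIF4E, EIF4EBP2, EIF4EBP1, EIF4B and EIF4G2), 1 was higher (EIF4G1) and EIF4E2 did not pass. The EIF4B value is that of 211938_at, which its probe set 211937_at opposes, and the EIF4G2 call is the narrow one given above. With 1 array left out 4 to 5 genes were called in place of 6, and with hybridization control centring 6 were lower and 1 higher. Over all 13157 genes 63.9% were called as deposited, 28.8% lower and 35% higher. The share of all genes with an array left out is not given here. With hybridization control centring 6442 of them were lower and 1634 higher. The median change was -0.45 for the 7 genes and 0.08 for all genes.

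**Figure D4:**
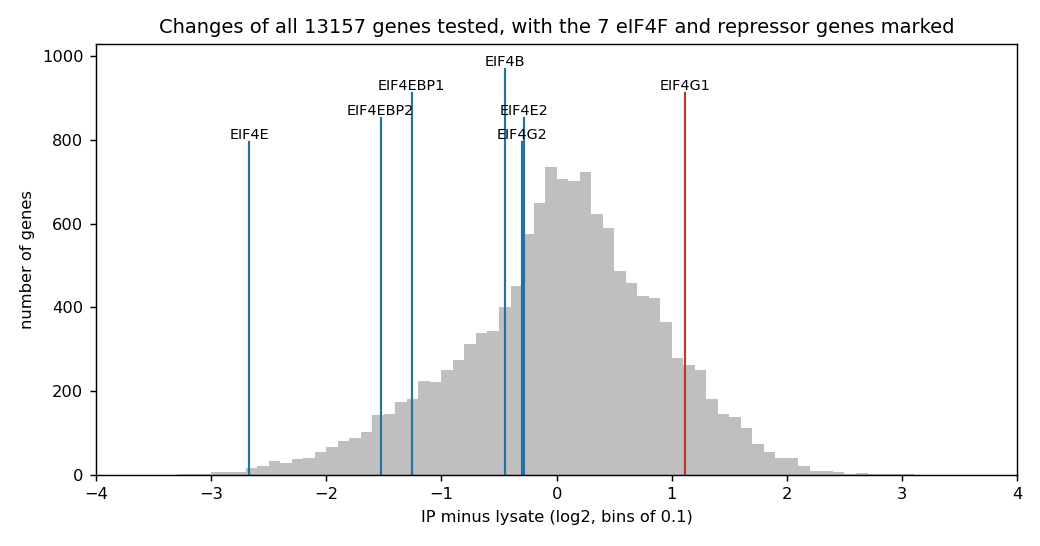
Number of genes (y axis) by change, IP minus lysate in log2 bins of 0.1 (x axis), for the 13157 genes tested, with the 7 eIF4F and repressor genes marked by lines (blue below 0, red above). EIF4E, on its brightest probe set, stands in the far left tail at -2.67, and EIF4G1 at 1.12 right of the centre.

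The partners and regulators of cap-dependent initiation moved in both directions. Of 25 listed genes 22 were tested, and 11 were higher, 6 lower and 5 did not pass (all genes: 35% and 28.8%), with a median change of 0.24 (all genes 0.08). MTOR, the kinase of the repressors, gave 9.34 and 9.49 in the IP and 6.64 and 6.92 in the lysate, 6.22-fold higher in the IP (limma adjusted p = 3.44e-05). CYFIP2 and CYFIP1, the FMRP partners of which CYFIP1 binds EIF4E, were 3.63-fold and 3.16-fold higher. CYFIP2 gave 11.97 and 12.12 in the IP and 10.09 and 10.28 in the lysate. CYFIP1 gave 12.19 and 12.22 in the IP and 10.57 and 10.53 in the lysate. EIF4E3, a further cap-binding homologue, fell to 5.94 and 5.40 in the IP, against 7.56 and 7.50 in the lysate (change -1.86, limma adjusted p = 8.71e-05). PAIP2B, an inhibitor of poly(A)-binding protein, and EIF4H, a helicase cofactor related to EIF4B, changed by -1.11 and -0.78. With hybridization control centring 5 of these genes were higher and 10 lower, where 1634 of all 13157 genes were higher and 6442 lower. MTOR, CYFIP2 and CYFIP1 then stood at 2.10, 1.33 and 1.13.

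The subunits of EIF3, the complex that EIF4G contacts, moved in both directions, at shares close to those of all genes. Of 13 subunits 12 were tested, with 4 higher, 4 lower and 4 that did not pass (all genes: 35% and 28.8%), and a median of -0.06. EIF3B, a core scaffold subunit, was 3.09-fold higher in the IP, at 12.21 and 12.20 against 10.61 and 10.54 in the lysate (limma adjusted p = 3.5e-05), on a probe set that can cross-hybridize. Its other _x_at probe set and its _s_at probe set changed by 1.60 and 2.08. The 3 remaining ones, all dimmer, disagreed, at 0.76, 0.10 and -1.09, the last being the brightest of them. EIF3D, which contacts EIF4G and can bind the cap of some mRNAs, and EIF3A, the largest subunit, were 2.14-fold and 1.87-fold higher. EIF3E, EIF3H and EIF3I changed by -1.02, -0.73 and -0.57, and EIF3E stood at 11.39 and 11.01 in the IP and 12.34 and 12.10 in the lysate. With hybridization control centring 2 subunits were higher and 7 lower, and EIF3A (0.37) did not pass. Of all 13157 genes 1634 were then higher and 6442 lower, so the move to lower was not particular to EIF3.

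**Figure D5:**
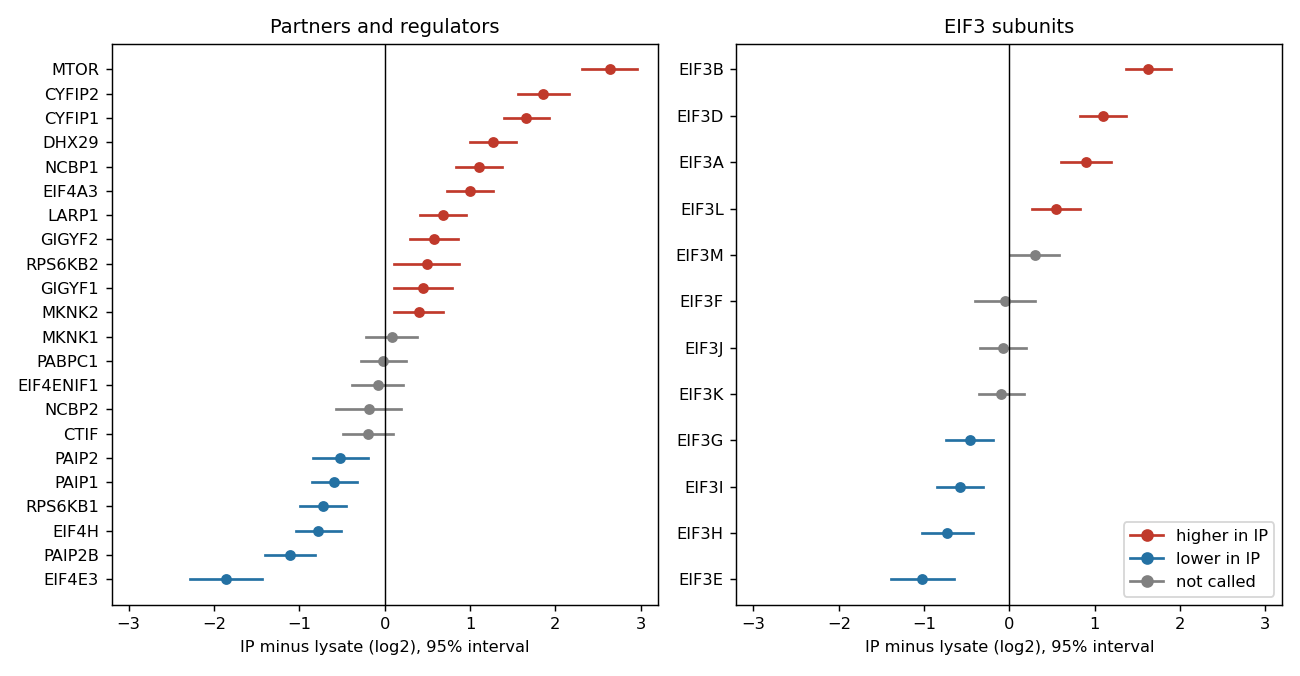
Change in log2 units, IP minus lysate (x axis), with its 95% interval for 22 partners and regulators (left) and 12 EIF3 subunits (right); calls at an adjusted p of 0.05 are red (higher in the IP) or blue (lower), the rest grey. MTOR (2.64), CYFIP2 (1.86) and CYFIP1 (1.66) top the left panel and EIF4E3 (-1.86) stands at its foot, while EIF3B (1.63) and EIF3E (-1.02) mark the ends of the right panel.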

How the data were processed

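Per the labels' protocols, 2 µg of RNA per sample was labelled with biotin and hybridized to 1 array per sample. The authors deposited log2 signals, as the value range and the array medians (4.67 to 4.71) show. How they corrected background, summarized probes and normalized arrays is not given in the sources used here. Detection calls are not in the table, and the floor of low values is unknown.

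The platform annotation gave 1 gene symbol to 41091 of 54675 probe sets, several to 1801 and none to 11721, and 62 were controls. Symbols were updated through Entrez numbers. Probe sets with a mean of at least 4.70 were kept (27281 probe sets, or 13157 genes represented by their brightest probe set). Differences (IP minus lysate) came from limma 3.58.1 under R 4.3.3, by lmFit and eBayes without covariates. Residual degrees of freedom were 2, and prior ones 4.82 for probe sets and 5.51 for genes. P-values were adjusted by Benjamini-Hochberg over all features tested. Adjusted p-values of single eIF4F and repressor probe sets come from the probe set fit, those of listed genes from the gene fit. The fit was tested on simulated data. Figures used matplotlib 3.10.9 and pandas 2.3.3.

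The genes, the 2 lists and the naming rule were chosen with earlier results of these data known. The rule names all probe sets of the 10 genes, FMR1, up to 3 called genes per list with the largest rise and 3 with the largest fall, and the 3 genes nearest to EIF4E. A correlation of protein length with change, as a description without a p-value, was planned and was not analysed here. Alternatives covered normalization, filter, choice of probe set, replicate block, spread, threshold and leaving out each array.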

Additional observations from a re-analysis of the deposited data

How the results depend on the processing

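Counts of called eIF4F and repressor probe sets ranged from 11 to 15 with an array left out, against 15, those of the genes from 4 to 5, against 6, those of partners from 13 to 17, against 17, and those of EIF3 subunits from 7 to 8, against 8. Without _s_at and _x_at probe sets 11 of 15 partners were called, with fewer tested and with MKNK2 still tested but no longer called (0.0059), and EIF4G1 had no value. As deposited, 59.5% of all probe sets and 63.9% of all genes tested were called. Their shares with an array left out, or without _s_at and _x_at probe sets, are not given here. The counts in those settings can therefore not be set against all features. Counting only probe sets that reached the filter level in both groups, added after seeing the data, 13 of 17 were called. All such probe sets gave 27.2% lower and 31.7% higher. The loss of EIF4E relative to EIF4G was -2.50 when all probe sets of a gene were averaged, -3.78 against EIF4G1 alone and -2.36 against EIF4G2 alone, -2.10 with probe set 201437_s_at and -1.95 with 201436_at. It ranged from -3.26 to -2.89 with an array left out. The limma fit centred on EIF4G (-3.07) stayed past the threshold without lysate replicate 1 (-3.13), lysate replicate 2 (-3.02), IP replicate 1 (-3.26) and IP replicate 2 (-2.89), which were added after seeing the data.

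The replicate block, with the number that IP and lysate samples share, gave 15 called probe sets and 5 called genes, a relative loss of -3.07, 17 partners and 8 EIF3 subunits. The block ended the gene-level call of EIF4G2. The shares of all probe sets and of all genes called with the block are not given here. The deviations of same-numbered samples correlated at 0.10 across genes, and no label pairs them.

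The sign changed in 23 of 740 single probe set or gene values, of which 14 were called neither as reported nor under the alternative. With hybridization control centring EIF4B 211937_at became -0.16, GIGYF1 -0.080, MKNK2 -0.13, RPS6KB2 -0.036, MKNK1 -0.45, EIF4G2 1557964_at -0.22 and EIF3M -0.24. With the mean of probe sets EIF4G2 became 0.0033, CTIF 0.40, EIF3M -0.295 and EIF3F 0.21. Without _s_at and _x_at probe sets EIF3B became -1.09 and EIF3F 0.48. With quantile normalization PABPC1 became 0.13 and EIF3F 0.049. With an array left out, values ranged across 0 for EIF4G2 1557964_at (-0.011 to 0.63), EIF4E2 226734_at (-0.31 to 0.041), MKNK1 (-0.015 to 0.18), EIF4ENIF1 (-0.19 to 0.032), PABPC1 (-0.042 to 0.013), NCBP2 (-0.41 to 0.033) and EIF3F (-0.21 to 0.10). The cause was not tested. EIF4G3 alone could not be run.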

Other observations

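The mRNAs of proteins that act on the poly(A) tail end of initiation were measured in the partner list. Those named here were chosen after their values were seen. PABPC1, the main cytoplasmic poly(A)-binding protein, gave 12.94 and 12.95 in the IP and 12.93 and 12.99 in the lysate on a probe set that can cross-hybridize, a change of -0.01 (95% interval -0.28 to 0.25, limma adjusted p = 0.918). With hybridization control centring it was called lower, at -0.55. Its regulators PAIP1 and PAIP2 changed by -0.59 and -0.52 (limma adjusted p = 0.00264 and 0.0118), and the PAIP2 call was lost without lysate replicate 1 (-0.37). The PAIP1 value is that of an _x_at probe set; its 4 other probe sets changed by -0.27 to -0.21 and none passed, and the mean of all was -0.32. LARP1, which binds mRNAs with a pyrimidine-rich start, rose 1.61-fold and was 0.16 with hybridization control centring, where it did not pass.

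Both genes of S6 kinase, which acts on EIF4B, were measured. RPS6KB1 gave 8.43 and 8.33 in the IP and 9.11 and 9.10 in the lysate (change -0.72, limma adjusted p = 9.21e-04). Its dimmer probe sets changed by -0.08 and -0.50 (limma adjusted p = 0.744 and 0.0327, probe set fit). The groups overlapped on the former, and the mean of all its probe sets was -0.43. RPS6KB2 gave 7.74 and 8.16 in the IP and 7.36 and 7.54 in the lysate (change 0.49, limma adjusted p = 0.0295). The RPS6KB2 call was lost when lysate replicate 1 (0.40), lysate 2 (0.59) or IP 2 (0.28) was left out. GIGYF2, the partner of EIF4E2, was higher at 8.46 and 8.33 in the IP against 7.78 and 7.87 in the lysate (limma adjusted p = 0.00373), and stood at 0.04 with hybridization control centring. NCBP1, a subunit of the nuclear cap-binding complex, was 2.15-fold higher, and its partner NCBP2 changed by -0.19 (95% interval -0.56 to 0.19), and was called lower when its probe sets were averaged (-0.46).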
